A study of Homo sapiens with 15 samples.

Results

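Gene expression was compared between LN/PC co-cultures (PRF), in which RPTEC/TERT1 cells grew together with fHDF/TERT166 fibroblasts, and LN/PC monocultures (PR), in which RPTEC/TERT1 cells grew alone. Members were taken by sample title: 3 PRF and 3 PR libraries, 6 of the 15 in the series. RPTEC/TERT1 is an immortalized human renal proximal tubule epithelial line, and fHDF/TERT166 is an immortalized dermal fibroblast line from foreskin, so the added stroma did not come from kidney. Both groups stood on LN/PC membranes in the same epithelial medium, which contained insulin, epidermal growth factor and hydrocortisone, and were collected 14 days after seeding. Epithelial cells were seeded at 140000 per cm2 in both groups, and in PRF fibroblasts at 14000 per cm2, 9.09% of the cells, were seeded shortly before them. Whole membranes were cut from their holder, so a PRF library mixes RNA of both cell types, and each sample pooled 3 to 8 membranes. Silk co-cultures (SRF), silk monocultures (SR), both on LN/FN-silk, and fibroblasts alone (F), with 3 libraries each, served to show the membrane dependence and which RNA belongs to which cell type.

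In the kidney the proximal tubule is a single layer of polarized epithelium that reclaims salt, glucose, amino acids and filtered proteins. It is sealed by tight junctions and kept in its differentiated state by nuclear factors such as PAX8. Fibroblasts lie beneath it, lay down interstitial collagen and exchange growth factors and metabolites with it.

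Against the epithelial label, the markers CDH16 (kidney cadherin), PAX8 and EPCAM were checked and were expressed in all 6 libraries, EPCAM at 737, 791 and 575 normalized counts in PRF 1 to 3 and 851, 879 and 913 in PR 1 to 3. LRP2 was not analysed here, and CUBN (cubilin), an endocytic receptor of the proximal tubule, was low, at 14.9, 8.19 and 52.5 in PRF and 66.0, 30.4 and 26.5 in PR. Of 27 genes listed for other nephron segments 7 were tested. Among these, SLC12A1 averaged 8518 in PRF and 10589 in PR, KCNJ16 7665 and 7837, and KCNJ1 2443 and 2271. These markers therefore do not settle the nephron segment. ANPEP could not serve as an epithelial marker, since fibroblasts alone held 9754 to 11757. Of the endothelial and immune markers PECAM1 and CD68 were measured. PECAM1 lay between 2.24 and 43.4 in PRF and between 16.1 and 97.7 in PR. CD68, a lysosomal protein that fibroblasts alone also expressed at 523 to 581, lay between 351 and 501 in PRF and between 152 and 255 in PR. Library totals, in units of 1e6 normalized counts, ran from 10.4 to 11.7 in PRF and from 9.08 to 10.9 in PR. The mitochondrially encoded share was 2.37 ± 0.584% in PRF and 2.48 ± 1.19% in PR (SD, n = 3 each). The first principal component of the 12 epithelial libraries (51.1% of the variance) placed the PRF libraries at 92.8 to 110 and the other 9 at -7.63 or below.

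Fibroblast RNA made up 13.9%, 9.81% and 15.2% of PRF 1 to 3, as the median over 112 fibroblast-restricted genes, and 0% of each PR library. Its mean in PRF was 13.0 ± 2.80% (SD, n = 3). Each share is the excess over the monoculture mean on that membrane, as a percent of the same excess in F. PR therefore lies near 0% by construction. The summed markers gave 20.9 ± 5.81%, and on these sums all 3 PRF libraries lay above all 3 PR libraries (a two-sided exact permutation test gave p = 0.1, the lowest value possible with 3 libraries per group). The markers were chosen without the co-cultures but for low values in PR and SR, so low sums in PR follow from that choice. The summed level of 9 fibroblast markers fixed by name ran from 76978 to 135718 normalized counts in PRF and from 57.2 to 109 in PR. In bulk RNA, fewer cells of a type and less RNA per cell cannot be told apart, so these shares count RNA and not cells. SRF libraries held 0.0239%, 0% and 0.113%, so the silk co-cultures carried next to no fibroblast RNA.

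Of 14433 genes tested, 1807 (12.5%) were called between PRF and PR by limma at an adjusted p under 0.05, 1126 (7.8%) higher and 681 (4.72%) lower in PRF. Without PRF 1 the calls numbered 753, without PRF 3 1149 and without PR 1 1133. The largest rises were of interstitial collagen. COL1A2, a chain of type I collagen, stood at 27925, 21350 and 33848 normalized counts in PRF 1 to 3 and was listed at 0 in each PR library. COL3A1, the chain of type III collagen, stood at 23909, 19236 and 39837 in PRF and was likewise listed at 0 in PR. All 32 fibroblast markers tested were called higher. Of 493 genes with a mean in F of at least 100 and at least 10 times that in SR, 416 were called higher and none lower by limma (1 lower at an unadjusted p under 0.05). When fibroblast RNA was added to the PR libraries by arithmetic at the mean share, 46 of these 493 were called higher and 35 lower in PRF than in the mixture, against 2.58% higher and 1.94% lower (4.52% in all) among all genes of that comparison. Genes silent in fibroblasts were examined next, since they report the epithelium.

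Epithelium-reporting genes were defined as those under 10 normalized counts in each fibroblast library and with a mean of at least 100 over the 12 epithelial libraries. There were 416, all of them tested. Because this mean includes PRF and PR, 2 of them reached 100 only through PRF, FOSB among them, and 10 only through PR, among them CA2, ZNF385B, RELN and LTB. With the mean taken over the 6 silk libraries instead, a choice made after the data were seen, there were 440 genes with a median log2 difference of -0.42 between PRF and PR, 81 of them called lower and 4 higher. The 416 lay lower in PRF as a group, with a median log2 difference of -0.42 (quartiles -0.70 and -0.10) against -0.04 over all tested genes. By library the median stood at -0.52, -0.29 and -0.39 relative to the PR mean in PRF 1 to 3 and at 0.01, 0.06 and -0.07 in PR 1 to 3, so the groups did not overlap. These genes took 3.85%, 5.25% and 3.87% of the counts in PRF and 5.24%, 5.81% and 5.55% in PR, and on this measure PRF 2 reached the lowest PR library. Taken from the remaining epithelial share alone, dilution would give a log2 difference of -0.20 with the median marker and -0.34 with the summed markers. Those values leave out the renormalization that the mixture received. Against that mixture, made at the median-marker share, the median of the epithelium-reporting genes was -0.16. No mixture was made at the summed share. Because these genes lay lower in PRF, the test was repeated after the libraries were rescaled to bring the median log ratio over epithelium-reporting genes to 0. That rescaling moved the median of all genes to 0.38 and the split of calls to 3833 higher (26.5%) and 141 lower (0.976%), 27.5% in all.

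**Figure D1:**
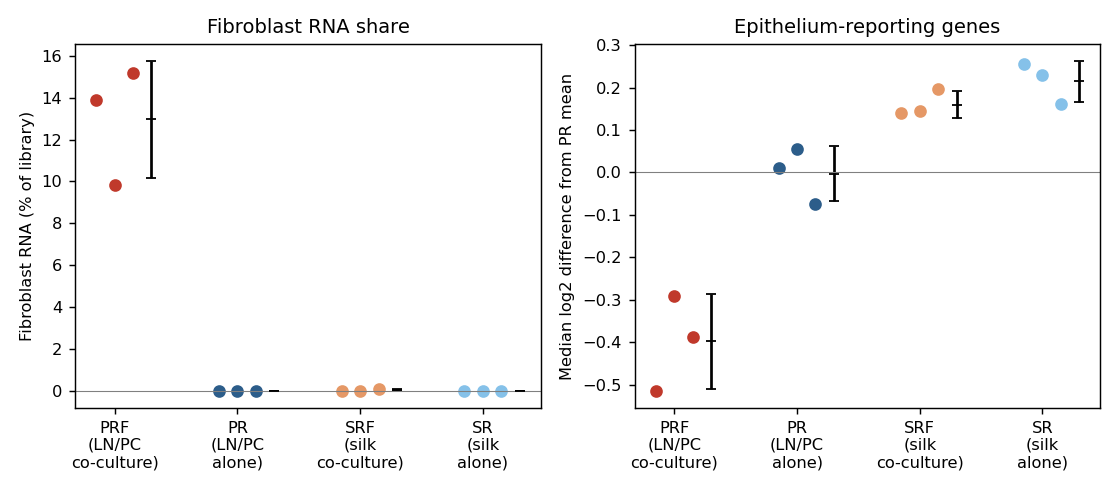
The left plot shows fibroblast RNA as a percent of each library and the right plot the median log2 difference of the 416 epithelium-reporting genes from the PR mean, with 1 point per library and mean ± SD (n = 3) beside each group of points. PRF libraries hold 9.81% to 15.2% fibroblast RNA and lie at -0.52 to -0.29, below every PR, SRF and SR library.

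On the deposited scale 82 of the 416 were called lower and 3 higher in PRF, against 4.72% lower and 7.8% higher among all tested genes. Of the 82, 24 were also called lower after rescaling and 22 against the PR libraries with fibroblast RNA added. Among all 681 genes called lower, 141 (20.7%) and 200 (29.4%) were kept in the same comparisons. After rescaling 33 of the 416 were called higher and 24 lower, against 26.5% higher and 0.976% lower among all genes. In the comparison with the mixture 5 were called higher and 22 lower, against 2.58% and 1.94% of all genes. A fit of the 6 LN/PC libraries alone called 46 lower and 2 higher, against 1.88% lower and 5.91% higher (7.79% in all) of the genes it tested. Without PRF 1 the calls numbered 42 and without PR 1 they numbered 55. The values of 128 of the 416 (30.8%) did not overlap between the groups, against 25.9% of all tested genes.

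The genes that fell most included a protease, an enzyme of acid-base balance and an ephrin receptor. CAPN13, a calpain-family protease, stood at 189, 246 and 266 normalized counts in PRF 1 to 3 and at 903, 1196 and 628 in PR 1 to 3. Its log2 change was -1.92 ± 0.30 (SE, adjusted p = 0.000231), and -1.50 ± 0.29 after rescaling (adjusted p = 0.00139). Every PRF library lay below every PR library, and F was at 0.

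CA2, the cytosolic carbonic anhydrase that supplies protons and bicarbonate to tubular transport, stood at 39.4, 40.2 and 57.6 in PRF and at 200, 103 and 180 in PR. Its change was -1.76 ± 0.27 (adjusted p = 0.000259), and -1.34 ± 0.28 after rescaling. CA2 met the mean of 100 only through PR, so its place among the epithelium-reporting genes that fell follows from the filter. EPHB1, an ephrin receptor, stood at 123, 142 and 126 in PRF and at 291, 332 and 444 in PR, a change of -1.42 ± 0.18 (adjusted p = 2.88e-05) that was -1.0 ± 0.19 after rescaling. Both sets of libraries were tight for EPHB1, and neither gene overlapped between groups. SGPP2, a sphingosine-phosphate phosphatase, fell to 395, 516 and 635 in PRF, against 1415, 1035 and 1453 in PR (-1.34 ± 0.22, adjusted p = 0.000409, and -0.92 ± 0.21 after rescaling).

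RASD1, a small GTPase induced by glucocorticoid, fell to 144, 132 and 119 in PRF, against 306, 485 and 388 in PR (-1.55 ± 0.30, adjusted p = 0.00188). ZNF385B, GPRIN3 and ADGRG1 fell by 1.35, 1.29 and 1.28 on the log2 scale. These 4 genes were called lower after rescaling and against the mixture as well. ZNF385B met the mean of 100 only through PR, so its place here follows from the filter. KMO, which hydroxylates kynurenine, stood at 65.1, 68.4 and 166 in PRF and at 254, 167 and 355 in PR (-1.44 ± 0.35, adjusted p = 0.0111, and -1.01 ± 0.36 after rescaling). It was not called against the mixture (adjusted p = 0.0618). Its highest PRF library was level with its lowest PR library, and the call was lost without PRF 1 or PRF 2. RELN, the secreted glycoprotein reelin, stood at 189, 367 and 155 in PRF and at 485, 696 and 534 in PR (-1.35 ± 0.41, adjusted p = 0.0394), and was not called after rescaling (adjusted p = 0.0933). Its call was lost without PRF 1, PRF 3, SRF 3 or any 1 of the PR libraries. RELN, too, met the mean of 100 only through PR, so its place here follows from the filter.

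UGT1A6, a phase II enzyme that conjugates glucuronic acid to drugs, stood at 28.5, 10.0 and 11.6 in PRF and at 115, 93.9 and 84.0 in PR. Its change was -2.61 ± 0.31 (adjusted p = 1.15e-05), and -2.21 ± 0.33 after rescaling. UGT1A genes share their last exons, so reads could be split among them. LTB, which encodes lymphotoxin beta, stood at 19.8, 18.8 and 22.8 in PRF and 374, 39.6 and 694 in PR (-3.36 ± 0.83, adjusted p = 0.013, and -2.95 ± 0.85 after rescaling). It met the mean of 100 only through PR, where it was high, so its place among the epithelium-reporting genes that fell follows from the filter and is given as a description. PR 2 lay near the PRF values, and the call was lost without PR 1 or PR 3.

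**Figure D2:**
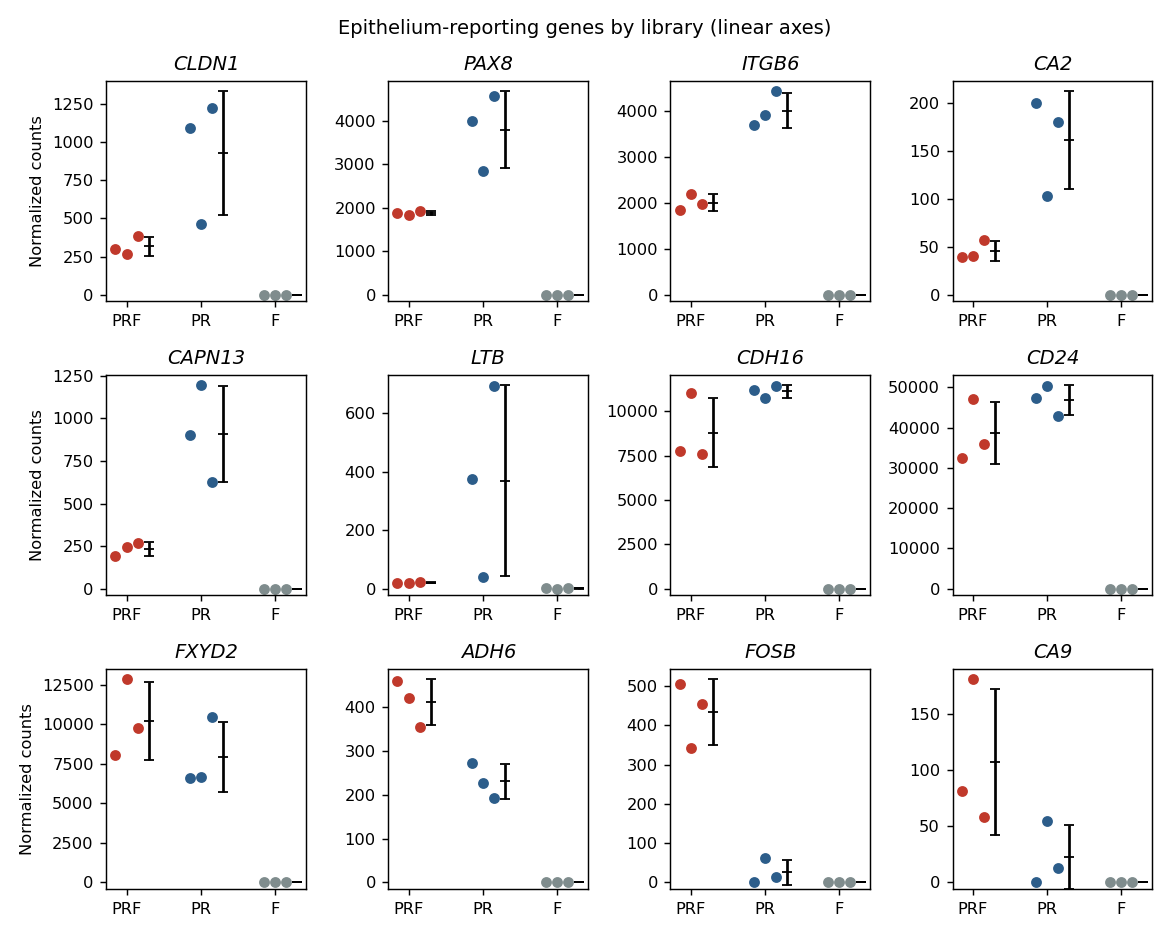
Each plot shows 1 epithelium-reporting gene in normalized counts, with 1 point per library and mean ± SD (n = 3) beside each group of points, for PRF, PR and fibroblasts alone (F). CAPN13, CA2, PAX8 and ITGB6 separate without overlap, CDH16, CD24 and FXYD2 overlap, and F is at or near 0 throughout.

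Of the 3 epithelium-reporting genes that rose, FOSB, an immediate early AP-1 factor, stood at 506, 343 and 455 in PRF and at 0, 62.5 and 14.3 in PR. The change was 5.44 ± 0.97 (adjusted p = 0.000996), and 5.84 after rescaling. FOSB met the mean of 100 only through PRF, with means of 11.2 in SRF and 0.568 in SR, so its count among the 3 follows from the filter. ADH6, a class V alcohol dehydrogenase, stood at 459, 420 and 355 in PRF and at 272, 227 and 192 in PR (0.84 ± 0.20, adjusted p = 0.0099, and 1.27 ± 0.22 after rescaling), with the call lost without PRF 1. CA9, a membrane carbonic anhydrase known as a hypoxia target, stood at 82.0, 181 and 58.4 in PRF and at 0, 55.0 and 13.4 in PR (3.38 ± 0.91, adjusted p = 0.022). CA9 was named after its values were seen, and its call was lost without PRF 1 or PRF 2 and in a fit of the 6 LN/PC libraries alone (adjusted p = 0.081). CA9 met the mean of 100 only through SRF, so its place among the epithelium-reporting genes rests on that group. A gene silent in fibroblasts grown alone may be switched on in them in co-culture, so a rise in PRF cannot be assigned to either cell type.

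Several abundant epithelial products did not pass the test. SPP1 (osteopontin) stood at 157007, 215795 and 106084 in PRF and at 135474, 104765 and 183584 in PR, with overlapping groups (log2 0.15 ± 0.40). CD24, a surface glycoprotein of tubular progenitors, stood at 32472, 47229 and 36002 in PRF and at 47505, 50281 and 42981 in PR (-0.30 ± 0.24). CDH16 stood at 7756, 11044 and 7598 in PRF and at 11187, 10751 and 11462 in PR (-0.36 ± 0.19, and 0.07 after rescaling). FXYD2, the gamma subunit of the sodium pump, stood at 8038, 12861 and 9734 in PRF and at 6595, 6688 and 10462 in PR (0.37 ± 0.23), and was called higher after rescaling (0.80 ± 0.24, adjusted p = 0.0215). HAVCR1, the injury marker KIM-1, stood at 87.3, 49.6 and 46.1 in PRF and at 209, 26.9 and 178 in PR, and was not called (adjusted p = 0.37).

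Tight junction and polarity genes seal the epithelium and set its apical side. Of 23 tested, 7 fell and none rose by limma (also none higher at an unadjusted p under 0.05), against 4.72% lower among all genes, with a median log2 difference of -0.44, close to the -0.42 of the epithelium-reporting genes. CLDN1 (claudin-1), a barrier-forming strand protein, stood at 298, 266 and 388 in PRF and at 1093, 464 and 1221 in PR (-1.44 ± 0.27, adjusted p = 0.00179), with PR 2 nearest to the PRF values. CLDN16, a paracellular cation channel, stood at 278, 245 and 370 in PRF and at 547, 508 and 613 in PR (-0.92 ± 0.19, adjusted p = 0.00436). PARD6B, of the apical polarity complex, stood at 223, 253 and 234 in PRF and at 474, 638 and 398 in PR (-1.06 ± 0.21, adjusted p = 0.00216). After rescaling 2 of the 23, CLDN1 (-1.02) and PARD6B (-0.63), were still called, against 0.976% lower among all genes. Among 13 cadherin and adherens junction genes 4 fell, with JUP (plakoglobin) at 1230, 1562 and 1208 in PRF and 3164, 2219 and 2470 in PR (-0.97 ± 0.19, adjusted p = 0.00202, and -0.54 ± 0.18 after rescaling). That count was 1 after rescaling (0.976% of all genes), 1 without PRF 1 or PRF 3 and 2 without PR 1.

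Nephron transcription factors lay lower as a list, with all 20 log2 differences below 0 and a median of -0.54, against -0.42 for the epithelium-reporting genes. Of these, 5 were called lower, against 4.72% lower among all genes. After rescaling 2 were called lower (0.976% of all genes) and the median was -0.13. The 5 included PAX8, which maintains tubular identity. PAX8 stood at 1882, 1832 and 1922 in PRF and at 3994, 2840 and 4574 in PR (-0.99 ± 0.18, adjusted p = 0.00112), and was still called after rescaling (-0.56 ± 0.19, adjusted p = 0.0406). PPARGC1A, a coactivator of mitochondrial genes, stood at 118, 140 and 195 in PRF and at 407, 289 and 297 in PR (-1.14 ± 0.21, adjusted p = 0.00134, and -0.71 ± 0.20 after rescaling). LHX1 and IRX3 also fell, and neither was called after rescaling. The count was 3 without PRF 1 or PR 1, and 9 without PR 3.

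Of 43 proximal tubule transporters listed only 16 were tested, so the result does not cover the rest. None of the 16 was called in either direction by limma, with 1 lower and 0 higher at an unadjusted p under 0.05, and their median was -0.12. The 5 of them that are epithelium-reporting had a median of -0.31, against -0.42 for that whole class. Of 13 brush border and endocytosis genes, ANPEP, ENPEP and MME rose and EZR (ezrin) fell, against 7.8% higher and 4.72% lower among all genes. Fibroblasts alone expressed the peptidases MME at 8081 to 9024 and ANPEP at 9754 to 11757, and the PRF values were 7289, 3543 and 5543 for MME against 2.44, 2.32 and 13.5 in PR. EZR, which links microvilli to actin, stood at 3242, 3983 and 3788 in PRF and at 6140, 6829 and 5863 in PR (-0.78 ± 0.16, adjusted p = 0.00301). It was not called after rescaling (-0.35 ± 0.15, adjusted p = 0.0969) or against the mixture (adjusted p = 0.0507). Of 19 drug metabolism genes 5 fell, against 4.72% of all genes: CYP1B1, UGT1A6, UGT1A9, EPHX1 and EPHX2. The count was 3 after rescaling and 2 in the fit of 6 libraries, where 0.976% and 1.88% of all genes were lower. It was 2 without PRF 3, and 3 without PRF 1, PR 1 or SRF 3.

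Of 25 basement membrane genes tested, 8 fell and 2 rose, against 4.72% lower and 7.8% higher among all genes. After rescaling 3 were called lower (0.976% of all genes), and the list median moved to -0.0030, against -0.43 on the deposited scale. In the fit of 6 libraries and against the mixture 5 were called lower (1.88% and 1.94% of all genes). None was called higher against the mixture by limma, also none at an unadjusted p under 0.05. The 2 that rose, LAMA2 and NID1, stood in fibroblasts alone at 3979 to 5122 and at 3435 to 4007 normalized counts. LAMB3, a laminin chain of epithelium, stood at 239, 177 and 130 in PRF and at 814, 282 and 1658 in PR (-2.03 ± 0.43, adjusted p = 0.00448, and -1.60 ± 0.46 after rescaling). COL4A1, of type IV collagen, stood at 5174, 5008 and 4395 in PRF and at 14250, 6029 and 13773 in PR (-1.13 ± 0.25, adjusted p = 0.00667), and was not called after rescaling (adjusted p = 0.0729). ITGB6, the beta-6 integrin that activates latent TGF-beta, fell without overlap to 1836, 2194 and 1969 in PRF, against 3688, 3897 and 4420 in PR (-1.0 ± 0.15, adjusted p = 0.000152, and -0.57 ± 0.17 after rescaling).

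Inflammatory and NF-kB genes, which encode cytokines and adhesion molecules and the pathway's own subunits, had a median of -0.87, with 8 of 26 called lower and none higher by limma (1 higher at an unadjusted p under 0.05), against 4.72% lower among all genes. After rescaling 2 were called lower and 1 higher (0.976% and 26.5% of all genes), and the median was -0.45. Against the mixture 3 were called lower and in the fit of 6 libraries 4 (1.94% and 1.88% of all genes). ICAM1, an adhesion molecule, stood at 88.9, 85.6 and 67.1 in PRF and at 451, 118 and 603 in PR (-1.98 ± 0.43, adjusted p = 0.00502, and -1.55 ± 0.44 after rescaling). BIRC3, an inhibitor of apoptosis and feedback target of NF-kB, stood at 185, 289 and 178 in PRF and at 805, 212 and 1051 in PR (-1.41 ± 0.42, adjusted p = 0.0351), with PR 2 inside the PRF range, and was not called after rescaling (adjusted p = 0.103). By library the list median was -0.69, -0.84 and -0.78 in PRF 1 to 3 and 0.30, -0.93 and 0.69 in PR 1 to 3. PR 2 thus lay below all 3 PRF libraries, and the groups overlapped. The count of 8 became 15 without PR 2, 3 without PR 1, 4 without PR 3 or PRF 1, and 5 without PRF 3.

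The stretch of 250 bases before the start site is shown for LTB (chr6:31582426-31582675, minus strand) and BIRC3 (chr11:102317234-102317483, plus strand), from RefSeq on GRCh38.p14, because both were called lower and both hold the NF-kB consensus, here in capitals. LTB was chosen after its values were seen. The consensus lay in 9.57% of 27305 such stretches, in 13 of 26 listed genes with a stretch in the table and in 2 of 5 of those called. Those 2 are NFKB1 and BIRC3, and LTB is not on the list.
LTB: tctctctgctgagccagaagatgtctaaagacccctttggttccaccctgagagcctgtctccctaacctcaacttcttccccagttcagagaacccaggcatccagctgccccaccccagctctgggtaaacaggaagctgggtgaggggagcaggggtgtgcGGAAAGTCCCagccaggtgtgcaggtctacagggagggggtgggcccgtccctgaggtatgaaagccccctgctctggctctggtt
BIRC3: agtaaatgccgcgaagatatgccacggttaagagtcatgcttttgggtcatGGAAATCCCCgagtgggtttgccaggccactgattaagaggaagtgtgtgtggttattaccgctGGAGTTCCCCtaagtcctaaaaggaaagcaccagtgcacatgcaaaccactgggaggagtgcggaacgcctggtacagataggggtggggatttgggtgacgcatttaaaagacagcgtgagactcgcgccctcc
A match is a description of letters and not of binding.

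Among 12 Notch pathway genes both directions occurred. JAG1, a Notch ligand, stood at 182, 262 and 326 in PRF and at 797, 546 and 670 in PR (-1.41 ± 0.20, adjusted p = 0.000107). HES1, a Notch target, stood at 61.6, 47.0 and 81.5 in PRF and at 140, 188 and 160 in PR (-1.37 ± 0.25, adjusted p = 0.00129). With HEY1 and MAML1, 4 of the 12 fell, and NOTCH3, RFNG and RBPJ rose, against 4.72% lower and 7.8% higher among all genes. JAG1 and HES1 were also called lower after rescaling and against the mixture. The count of 3 that rose was 1 without PRF 1.

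Of 12 EGF family genes 2 fell and 1 rose, and of 22 genes of the FGF, HGF and PDGF pairs 5 fell and 6 rose, against 4.72% lower and 7.8% higher among all genes. None of the 22 was called lower by limma after rescaling (2 at an unadjusted p under 0.05), in the fit of 6 libraries (7) or without PR 1 (7). The 5 became 1 without PRF 1, 2 without PRF 3 and 3 without PR 3, and the 2 of the EGF family became 1 without PRF 1 or PR 1 and 4 without PR 2. Against the mixture none of the list was called higher by limma (5 at an unadjusted p under 0.05). ERBB4, an EGF family receptor, stood at 458, 459 and 467 in PRF and at 981, 844 and 786 in PR (-0.91 ± 0.19, adjusted p = 0.00353). ERBB4 was not called after rescaling (adjusted p = 0.0619). MET, the receptor of hepatocyte growth factor, stood at 1781, 2020 and 1514 in PRF and at 2991, 2174 and 3133 in PR (-0.63 ± 0.18, adjusted p = 0.0286), with the call lost after rescaling (-0.21 ± 0.19) and without PRF 1, PRF 3, PR 1 or PR 3. FGF7, a ligand that acts on epithelium, stood at 259, 183 and 374 in PRF and at 0.576, 0 and 2.50 in PR, and fibroblasts alone held 827 to 940.

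Hypoxia response genes are targets of the factor HIF, which oxygen controls. Of 32 tested, 14 rose and none fell by limma (2 lower at an unadjusted p under 0.05), against 7.8% higher among all genes, and the median was 0.71. By library the median was 0.78, 0.92 and 0.51 in PRF 1 to 3 and -0.21, 0.14 and 0.17 in PR 1 to 3, without overlap. The fibroblasts alone lay at -1.33 to -1.46 on this scale, below PR. Against the PR libraries with fibroblast RNA added, 14 of the 32 were called higher, where the share of all genes was 2.58%. These were not all the same genes. ADM, called higher than PR, was not called by limma against the mixture (log2 -0.095, adjusted p = 0.94). ANGPTL4, a secreted lipase inhibitor, stood at 733, 614 and 583 in PRF and at 21.9, 28.3 and 66.1 in PR (4.17 ± 0.39, adjusted p = 9.91e-07), with fibroblasts alone at 136 to 190. CA12, a membrane carbonic anhydrase, stood at 453, 463 and 674 in PRF and at 40.1, 64.1 and 30.2 in PR (3.58 ± 0.26, adjusted p = 5.76e-08).

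Several abundant members were higher in PRF than in either cell type alone. P4HA1, a collagen prolyl hydroxylase subunit, stood at 7262, 5919 and 6273 in PRF, at 2075, 2876 and 3092 in PR and at 3517 to 4038 in F (1.29 ± 0.20, adjusted p = 0.000264). ERO1A, an oxidoreductase of the endoplasmic reticulum, stood at 2097, 1746 and 1741 in PRF, at 666, 653 and 890 in PR and at 569 to 676 in F (1.35 ± 0.17, adjusted p = 2e-05). BNIP3, a mitophagy receptor, stood at 3062, 3271 and 3227 in PRF, at 1034, 2172 and 1626 in PR and at 546 to 684 in F (1.05 ± 0.21, adjusted p = 0.0025). PGK1, a glycolytic kinase, stood at 13355, 16972 and 13788 in PRF, at 5391, 10444 and 8532 in PR and at 2213 to 2836 in F (0.90 ± 0.24, adjusted p = 0.0187), and was not called in the fit of 6 libraries (adjusted p = 0.067).

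**Figure D3:**
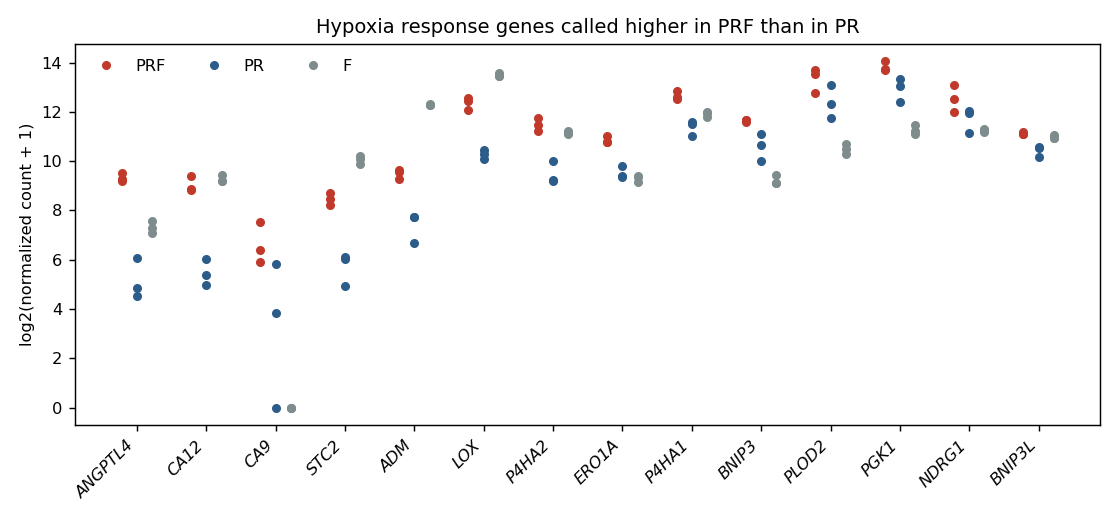
The 14 hypoxia response genes called higher in PRF are shown as log2(normalized count + 1), with 1 point per library for PRF, PR and fibroblasts alone (F). ANGPTL4, P4HA1, ERO1A, BNIP3 and PGK1 lie higher in all 3 PRF libraries than in any PR or F library, while ADM, STC2 and LOX are highest in F.

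The 250 bases before the start site are shown for CA9 (chr9:35673678-35673927, plus strand) and ANGPTL4 (chr19:8363905-8364154, plus strand), also from RefSeq on GRCh38.p14, since CA9 is epithelium-reporting and ANGPTL4 had the largest change of the list. CA9 met the mean of 100 for that class only through SRF. Capitals mark the core of the hypoxia response element, ACGTG read on either strand. The core lay in 18.7% of 27305 such stretches, in 16 of 29 listed genes with a stretch in the table and in 8 of 12 of those called.
CA9: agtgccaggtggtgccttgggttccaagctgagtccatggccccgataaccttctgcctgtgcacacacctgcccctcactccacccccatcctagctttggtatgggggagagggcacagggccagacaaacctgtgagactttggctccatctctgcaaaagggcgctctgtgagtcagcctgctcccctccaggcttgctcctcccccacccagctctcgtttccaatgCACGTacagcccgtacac
ANGPTL4: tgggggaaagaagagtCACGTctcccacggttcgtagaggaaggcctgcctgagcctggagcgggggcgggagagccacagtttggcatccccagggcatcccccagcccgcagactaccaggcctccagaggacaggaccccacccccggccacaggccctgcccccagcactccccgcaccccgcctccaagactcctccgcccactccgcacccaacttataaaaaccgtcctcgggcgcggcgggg
Both matches lie on the strand opposite to the gene, 14 bases before the start site in CA9 and 230 bases before it in ANGPTL4.

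Of 24 glycolysis genes 5 rose (SLC2A3, ALDOC, PGK1, PGAM1 and ENO2), against 7.8% of all genes. In the comparison with the mixture 8 were called higher, where the share of all genes was 2.58%. ENO2, an enolase, stood at 1023, 960 and 819 in PRF, at 342, 396 and 459 in PR and at 96.4 to 160 in F (1.23 ± 0.15, adjusted p = 1.46e-05). The count was 3 without PRF 2 or PR 1 and 8 without PR 3.

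Immediate early genes are the first transcripts made after a stimulus. Of 30 tested, 7 rose and none fell by limma (also none lower at an unadjusted p under 0.05). Among all genes 7.8% rose and 4.72% fell. Without PR 2 the count that rose was 14. NR4A1, an orphan nuclear receptor, stood at 280, 239 and 288 in PRF, at 8.54, 19 and 0 in PR and at 69.4 to 116 in F (5.55 ± 0.85, adjusted p = 0.00023). ATF3, a stress-induced factor, stood at 105, 88.5 and 117 in PRF, at 19.9, 7.86 and 11.7 in PR and at 19 to 42.9 in F (2.97 ± 0.43, adjusted p = 0.000116). FOSB, NR4A1 and ATF3 were all higher in each PRF library than in any PR or F library.

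Of 37 ribosomal protein genes 17 rose, against 7.8% of all genes, and all 37 differences lay above 0 (median 0.55). RPL27 stood at 5291, 5289 and 5730 in PRF, at 1998, 2968 and 3134 in PR and at 6130 to 7114 in F (1.04 ± 0.18, adjusted p = 0.00084). Fibroblasts alone lay above PR for this list by a median of 0.79 to 0.87. Against the PR libraries with fibroblast RNA added, 11 were still called higher (2.58% of all genes), with a median of 0.49. The fit of 6 libraries called 7 higher (5.91% of all genes). Ribosomal protein genes have many processed copies, so their values may be split among them. The count was 8 without PR 1, and 10 without PRF 1 or PRF 3. Of 5 metallothionein genes, which bind zinc and copper and are close copies of each other, MT1E, MT1X and MT2A rose. MT1X stood at 271, 380 and 427 in PRF, at 134, 217 and 134 in PR and at 34.0 to 51.1 in F (1.16 ± 0.22, adjusted p = 0.00181), so fibroblasts alone held less than either culture.

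**Figure D4:**
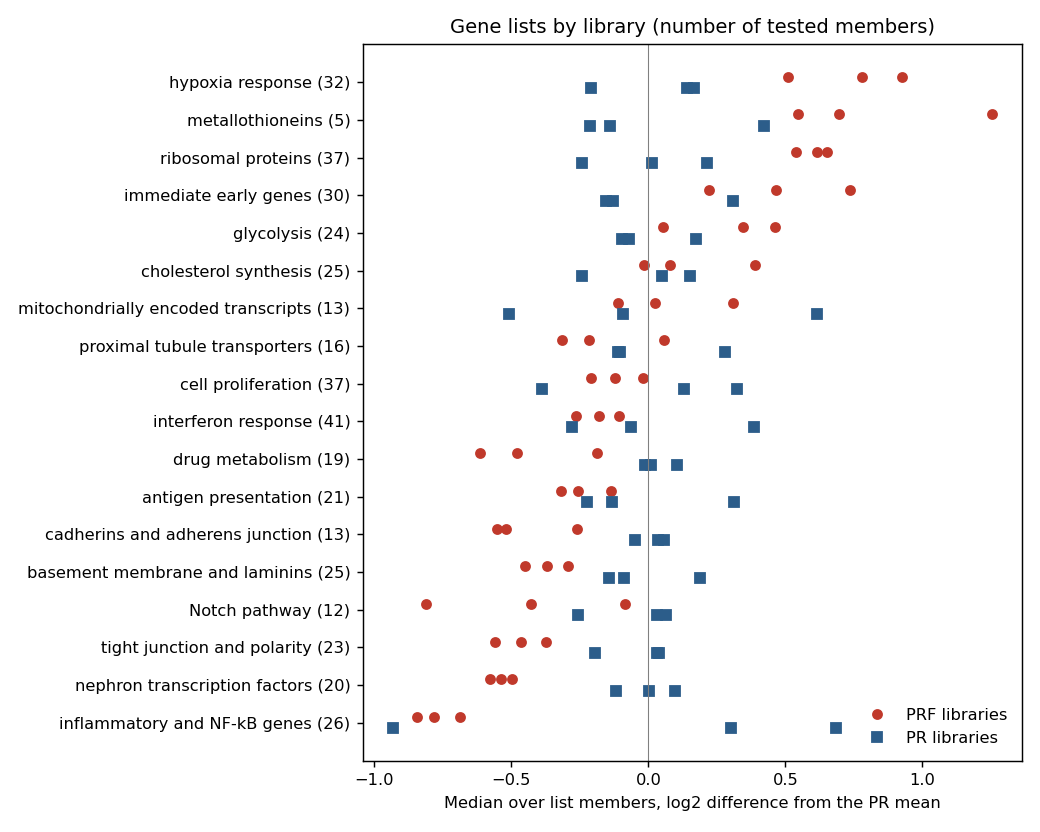
For 18 gene lists the median over tested members of the log2 difference from the PR mean is shown for each PRF library (circles) and each PR library (squares). Hypoxia response and ribosomal protein genes lie higher in every PRF library, nephron transcription factors and tight junction genes lie lower, and the NF-kB list overlaps through PR 2.

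Whether the response of the epithelium depended on the membrane was tested with the difference between the LN/PC change (PRF minus PR) and the silk change (SRF minus SR). Over all genes 1116 (7.73%) were called, 662 (4.59%) higher and 454 (3.15%) lower on LN/PC. Without PRF 1 these numbered 465, without PRF 3 633 and without SRF 3 725. Among the 416 epithelium-reporting genes 10 were called higher and 57 lower on the deposited scale, and the median difference was -0.43. After rescaling on epithelium-reporting genes the calls over all genes became 1332 higher and 148 lower on LN/PC, so this split depends on the scale. On silk 33 of the 416 rose and 26 fell, with a median of -0.02, against 2.91% higher and 0.866% lower (3.78% in all) of all genes. Of the 82 that fell on LN/PC, 7 fell and 6 rose on silk. SRF libraries held almost no fibroblast RNA, so the fibroblast share differed between the membranes together with these changes, and its part in them was not tested.

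Junction and receptor genes illustrated the difference. CLDN1 averaged 317 ± 63.2 in PRF and 926 ± 405 in PR (SD, n = 3 each), and 1642 ± 156 in SRF and 1406 ± 271 in SR (difference of changes -1.68, adjusted p = 0.012). EPHB1 averaged 130 ± 10.5 in PRF and 356 ± 79.2 in PR, and 480 ± 40.5 in SRF and 298 ± 22.8 in SR (-2.11, adjusted p = 5.8e-05), so it moved in opposite directions. ITGB6 fell on both membranes, with a silk change of -0.79 (adjusted p = 0.0053), and its changes did not pass the test of difference (-0.21, adjusted p = 0.60). RASD1 likewise fell on silk by 1.43 on the log2 scale (adjusted p = 0.01).

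Of the hypoxia response list, 13 genes rose and none fell on silk by limma (1 lower at an unadjusted p under 0.05). Among all genes 2.91% rose and 0.866% fell on silk. The difference between membranes was called higher on LN/PC for 3 of the list and lower for 5, against 4.59% and 3.15% of all genes. ERO1A, for example, rose on silk by 2.23 (adjusted p = 1e-06) and on LN/PC by 1.35, and the difference was called (-0.88, adjusted p = 0.028). ANGPTL4 rose by 2.26 on silk and by 4.17 on LN/PC, a difference of 1.91 (adjusted p = 0.045). Ribosomal protein genes had no calls on silk (0 of 37 by limma, adjusted or at an unadjusted p under 0.05), where their median was 0.10.

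**Figure D5:**
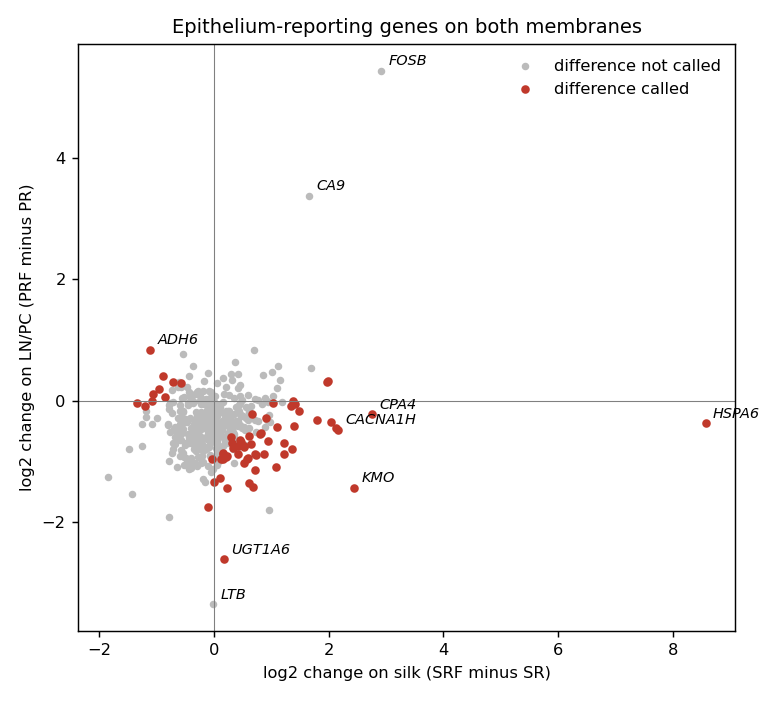
Each point is 1 of the 416 epithelium-reporting genes, with the log2 change on silk (SRF minus SR) across and on LN/PC (PRF minus PR) upward. Red points passed the test of the difference between membranes. Most points lie below the horizontal line, around -0.42, and HSPA6, KMO, CPA4 and CACNA1H lie far to the right. HSPA6 and CPA4 met the mean of 100 only through SRF.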

How the data were processed

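RNA from 15 cultures was sequenced, and 6 libraries (PRF and PR) carry the comparison. Libraries came from poly-A RNA and a directional kit, per the labels' protocols. The submitters' processing notes name Salmon 1.10.3 and DESeq2, and no genome build or annotation is given in the sources used here, labels included. Values that the authors deposited, for 15790 genes, are log2 values whose lowest level is 5.53664461 in each library, as after a variance-stabilizing transformation. Linear normalized values had been foreseen, so an inversion of the transformation was added once the table was seen, and results are given as normalized counts. Over 13121 genes the median ratio was then 1.01175 in all libraries (spread 6.27e-09). Assigned reads, in units of 1e6, were about 8.90 to 12.4 in PRF and 9.25 to 12.0 in PR. Low values were near whole reads (within 0.1) in 33.8% to 46.9% of cases, which recovers no reads, and count models were not used.

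Limma-trend (limma 3.58.1, R 4.3.3) was fitted once to log2(value + 1) of the 12 epithelial libraries, for genes with at least 10 in at least 3 of them. Benjamini-Hochberg adjustment ran over all tested genes, and calls needed an adjusted p below 0.05. On this scale the added 1 shrinks the changes of low genes. A change that rests on a library listed at 0, as for FOSB, depends on the pseudocount and can exceed the fold between group means. Fibroblast-restricted genes needed a mean of 1000 or more in F, 100 times or more above both epithelial monocultures. The mixture added the mean F profile to each PR library at 13.0%. Named genes were called in the fits of 12 and of 6 libraries, without overlap between groups and averaging 100 or more in the higher one. They comprised the 12 largest changes per direction among epithelium-reporting genes, the 5 largest per direction among all genes, up to 4 per list, a fixed panel and the 5 largest membrane differences per direction. Some named genes are not reported here. Further list members named in the text were chosen after their values were seen. Members and lists were chosen with earlier results of these data known. No label states that replicates were separate cultures, so p-values cover the spread among these samples only, and that spread may be technical. The fit was tested on simulated data.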

Additional observations from a re-analysis of the deposited data

Results flagged for a closer look

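The change on LN/PC (PRF minus PR) differed from that on silk (SRF minus SR) for these epithelium-reporting genes, by limma's test of the difference with Benjamini-Hochberg adjustment. HSPA6, an inducible chaperone, had a difference of -8.94 (adjusted p = 2.4e-05), with 1.39, 0 and 1.84 normalized counts in PRF 1 to 3 and 2.99, 0 and 2.70 in PR 1 to 3, against 488 ± 399 in SRF (SD, n = 3) and a listing of 0 in SR. HSPA6 met the mean of 100 that defines these genes only through SRF, so its place here follows from the filter, there was no LN/PC change to compare, and the value depends on the pseudocount, since SR is listed at 0. KMO differed by -3.88 (adjusted p = 8.5e-05), falling on LN/PC and rising on silk by 2.44. CPA4, a carboxypeptidase, differed by -2.98 and CACNA1H, a calcium channel subunit, by -2.65, with adjusted p = 0.0014 and 0.00038. Both rose on silk, by 2.75 and 2.17, and were not called on LN/PC, and CPA4 met the mean of 100 only through SRF. UGT1A6 differed by -2.79 (adjusted p = 0.00053).

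In the other direction ADH6 differed by 1.95 (adjusted p = 0.00028), rising on LN/PC and falling on silk by 1.11 on the log2 scale. CXCL14, a chemokine, differed by 1.29 (adjusted p = 0.012), the noncoding RNA LINC02532 by 1.29 (adjusted p = 0.0043), CDKN1C, a cell cycle inhibitor, by 1.18 (adjusted p = 0.025) and BBOX1, of carnitine synthesis, by 1.13 (adjusted p = 0.014). These 4 fell on silk and were not called on LN/PC.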

How the results depend on the processing

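Against 1807 genes called (85 epithelium-reporting), the fit of the 6 LN/PC libraries called 1088 (48), rescaling on epithelium-reporting genes 3974 (57), and the comparison with PR mixed with the fibroblast profile 656 (27). The epithelium-reporting median was 0.0072 when rescaled, as the rescaling sets it near 0, and -0.16 against the mixture. Leaving out 1 library gave 753 to 2007 calls (42 to 103 epithelium-reporting), medians of -0.48 to -0.36, 465 to 1359 differences between membranes and a fibroblast share of 11.9% to 14.5%. Counts of calls moved by over 1.5 times without PRF 1 (753, and 465 differences), PRF 3 (1149, and 633 differences) and PR 1 (1133), and the differences between membranes without SRF 3 (725). With 2 PRF libraries left, genes seen only there cannot reach the minimum of 3 libraries, and 21 or 22 fibroblast markers were then called. The summed markers gave a share of 20.9%.

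Against the mixture, log2 changes turned negative for AQP1 (-2.92), IGFBP2 (-1.69), PDGFRB (-1.02), ITGA11 (-0.94), NID1 (-0.83), GREM1 (-0.29), PDGFRA (-0.14), ADAMTS2 (-0.10), ADM (-0.095), FABP3 (-0.017) and DDR2 (-0.022), genes that fibroblasts alone express more highly than PR. The cause of the other shifts was not tested.

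With the replicate number as a block, the 6 libraries gave 960 calls (43 epithelium-reporting). Deviations of PRF and PR libraries with the same number correlated at 0.10, -0.07 and -0.25, and PRF 3 correlated best with PR 2 (0.32). With 3 libraries per group, deviations from a group mean cancel, so these values cannot decide whether the numbers pair the samples. The upper quartile, pseudocounts of 0.5 and 5, the other filters and the deposited log2 values kept these counts within 1.5 times. Depth limits low genes, and CA9 or FOSB listed at 0 was not detectable at this depth.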

Other observations

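Genes of mesenchymal cells rose in PRF beside the fibroblast RNA, which made up 13.0% of those libraries. Of 13 contractile genes 9 rose and none fell by limma (also none lower at an unadjusted p under 0.05), against 7.8% higher and 4.72% lower among all genes. ACTA2, smooth muscle actin, stood at 1772, 1208 and 1619 normalized counts in PRF 1 to 3, at 390, 309 and 344 in PR 1 to 3 and at 2133 to 2615 in fibroblasts alone (2.13 ± 0.18, SE, adjusted p = 3.9e-07). It was also higher than in the PR libraries with fibroblast RNA added (1.37 ± 0.17, adjusted p = 0.000305). Of the 13, 5 were called higher than the mixture and 1 lower, against 2.58% and 1.94% of all genes. Of 13 factors linked to epithelial-mesenchymal transition 10 rose, and 1 was called higher than the mixture, S100A4 (2.08 ± 0.24, adjusted p = 0.00013). AQP1, a water channel, stood at 110, 67.6 and 184 in PRF, at 13.5, 12 and 5.29 in PR and at 6193 to 6990 in fibroblasts alone, so it rose over PR and lay below the mixture by a log2 difference of -2.92 (adjusted p = 0.00167).

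The number of calls varied among other lists. Of 37 cell proliferation genes 1 was lower, of 41 interferon response genes 3 were higher and 4 lower, and of 21 antigen presentation genes 4 were lower, against 7.8% higher and 4.72% lower among all genes. The 4 interferon genes became 0 without PRF 1 or PR 3, 1 without PRF 3 or PR 1 and 8 without PR 2, and the 3 that were higher became 1 without PRF 1, PRF 3, PR 1, PR 2, SRF 1 or SR 2. The 4 antigen presentation genes became 1 without PRF 1 and 2 without PR 1 or PR 3. The fit of 6 libraries called none of the interferon list lower by limma (7 at an unadjusted p under 0.05) and neither did rescaling (0). Each of these fits called 1 of the antigen presentation list lower, against 1.88% and 0.976% of all genes. None of 13 mitochondrially encoded transcripts was called by limma, nor passed at an unadjusted p under 0.05. Of 28 genes of the unfolded protein response 4 rose in PRF against PR (2 without PRF 1, PRF 3 or PR 1). On silk 15 rose and 1 fell in SRF against SR, against 2.91% higher and 0.866% lower among all genes. The difference between membranes was called lower on LN/PC for 8 of the 28 and higher for 2, against 3.15% and 4.59% of all genes.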
